A study of Homo sapiens with 48 samples.

Results

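The genes described here encode the aminoacyl-tRNA synthetases, the enzymes that load each amino acid onto its transfer RNA. They were chosen by symbol alone: one letter of the amino acid code followed by ARS, the fused gene EPRS1, and the phenylalanine genes FARSA, FARSB and FARS2. This rule found 36 of the 33892 rows of the count table, 19 for enzymes of the cytosol and 17, with symbols ending in 2, for enzymes of the mitochondrion. RNA was sequenced from 8 established human cancer cell lines grown in dishes: the colon cancer lines RKO and DLD-1, the lung cancer lines H-23 and H-1299, the pancreatic cancer lines PANC-1 and CAPAN-2, and the multiple myeloma lines H-929 and RPMI. Each line was given either carfilzomib, a drug that blocks the proteasome irreversibly, or only its solvent DMSO, for 24 h. The dose was set in each line to the concentration at which the proteasome kept 50% of its activity, and the doses themselves were not used here. Each of the 16 groups holds 3 libraries that the labels call biological replicates, and none carries an engineered allele. Each tumour type stands on a pair of lines, so a difference between tumour types cannot be told apart from a difference between individual lines.

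Cells keep separate sets of synthetases for the cytosol and for the mitochondrion, encoded by separate nuclear genes, although GARS1 and KARS1 supply both compartments and mitochondria make glutaminyl-tRNA by an indirect route. Several cytosolic synthetases are held with the scaffold proteins AIMP1, AIMP2 and EEF1E1 in a large particle, the multi-synthetase complex. Many cytosolic synthetase genes are known targets of the transcription factor ATF4, which is translated when the initiation factor eIF2 is phosphorylated, as occurs when amino acids run short, when unfolded proteins build up in the endoplasmic reticulum or when the proteasome is blocked. ATF4 binds, with a partner protein, to a composite site known as the CARE element.

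Because those elements are where ATF4 acts, the RefSeq promoter sequences of the members (GRCh38.p14, 250 bases before to 50 bases after each listed start) were searched on both strands for the 8 letters TGATGNAA, which read TTNCATCA on the other strand. The promoter table holds 30 of the 36 members. The letters were found in 8 of the 30, in 7 of 16 cytosolic members and in 1 of 14 mitochondrial members, against 1217 of 27305 genes in the whole table (4.46%). The windows of 30 bases around the letters are shown on the strand of the gene, because the members that hold them recur in the comparison of the myeloma lines, and the capitals mark the match. Distances run from the start to the first letter of the match, so the matches of CARS1 and MARS1 run across the start.
AARS1, chr16:70289675-70289704, minus strand, 187 bases before the start: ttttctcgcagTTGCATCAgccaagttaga
CARS1, chr11:3057407-3057436, minus strand, 2 bases before the start: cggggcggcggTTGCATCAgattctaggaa
GARS1, chr7:30594834-30594863, plus strand, 33 bases before the start: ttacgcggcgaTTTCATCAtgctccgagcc
IARS1, chr9:92293692-92293721, minus strand, 13 bases before the start: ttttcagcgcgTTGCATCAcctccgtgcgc
MARS1, chr12:57488053-57488082, plus strand, 4 bases before the start: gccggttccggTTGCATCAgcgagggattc
NARS1, chr18:57621804-57621833, minus strand, 14 bases after the start: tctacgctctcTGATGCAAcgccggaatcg
TARS1, chr5:33440956-33440985, plus strand, 2 bases after the start: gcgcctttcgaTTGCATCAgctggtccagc
YARS2, chr12:32756076-32756105, minus strand, 197 bases before the start: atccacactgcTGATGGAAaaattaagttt
ASNS, chr7:97872458-97872487, minus strand, 68 bases before the start: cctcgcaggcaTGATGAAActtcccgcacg
ASNS, the asparagine synthetase gene, is no member and is shown as a known ATF4 target for comparison. The list of the ATF4 arm and the amino acid response, used further below, has 27 genes and includes ASNS. The promoter table holds 21 of them, and the letters were found in 4 of the 21, so most lacked them in this window. Of the 7 cytosolic windows, 6 hold the letters TTGCATCA on one strand or the other, and GARS1 holds TTTCATCA. A match is a description of these letters in this window, not a site of binding.

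Library totals ran from 9.12 M to 64.4 M counts, with the lowest in H-929. Of the 36 members, 34 had enough counts to be tested in every line, all 19 cytosolic and 15 mitochondrial. SARS2 had at most 2 counts in a library and VARS2 at most 78, and neither was tested within a line. The count table has no row named VARS1, so the cytosolic valine enzyme is not analysed here. CARS1, VARS2 and SARS2 each share their identifier with further rows of the table, so their values are uncertain. As a check on the lines, the summed level of a plasma cell marker list was 4380 to 4510 CPM (counts scaled to the library total) in untreated H-929 and 2030 to 2220 in RPMI, against 10.7 to 388 in the other lines. After carfilzomib it was 2850 to 2910 in H-929 and 805 to 950 in RPMI, and the part of that change in the results on these lines was not tested. RKO was poor in epithelial markers, with KRT19 at 0. Its colon list summed to at most 23.7 CPM, with CDX1 and LGALS4 at 0, against 104 to 127 in DLD-1, where LGALS4 was also at 0, and at most 13.2 in the other untreated lines. The lung marker list summed to at most 4.72 CPM in H-23 and 1.69 in H-1299, below the 37.6 to 40.6 CPM of the myeloma line H-929. The pancreas list summed to at most 6.75 in PANC-1 against 1390 in CAPAN-2. The summed leukocyte markers did not exceed 24.1 CPM in any untreated library, with that highest value in H-929. The fibroblast list summed to at most 15.7 CPM, in PANC-1. The endothelial list, of 2 genes, summed to 228 to 290 CPM in untreated H-929, with 1 gene above a mean of 1 CPM. In the other untreated lines it reached at most 5.83 CPM. All CPM values use library totals scaled with the TMM factor of the line's own fit.

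Without the drug, cytosolic synthetase genes were expressed at higher levels than mitochondrial ones. Levels between genes were compared as CPM per kb of exon, as a median of the 8 lines, for the 33 members whose identifiers matched GENCODE release 29. The 18 cytosolic genes had a median of 51.9 CPM per kb and the 15 mitochondrial genes 11.2. EPRS1, which charges both glutamate and proline, was highest at 122.6 CPM per kb, followed by GARS1 (glycine) at 99.4, NARS1 (asparagine) at 91.3 and AARS1 (alanine) at 78.6. These 4 genes overlapped in their ranges over the lines, so their order is not fixed from line to line.

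Single genes crossed between the compartments. IARS2, the mitochondrial isoleucine enzyme, stood at 62.7 CPM per kb, the ninth highest of the 33 genes, and the next mitochondrial gene, YARS2 for tyrosine, at 22.2. Across lines the level of IARS2 ran from 23.4 CPM per kb in H-929 to 107.4 in RPMI. HARS1, for histidine, was the lowest cytosolic gene at 11.5 CPM per kb, just under its mitochondrial partner HARS2 at 12.6, although HARS1 has a summed exon length of 7853 bases in that annotation, which lowers a level per kb. GARS1 reached 162.1 CPM per kb in H-929, its highest line, and 62.3 in CAPAN-2. WARS1, for tryptophan and known to be raised by interferon, was at 47.4 CPM per kb in H-929 and at 12.2 in RPMI. WARS2 had the lowest median of the 33, 3.96 CPM per kb.

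**Figure D1:**
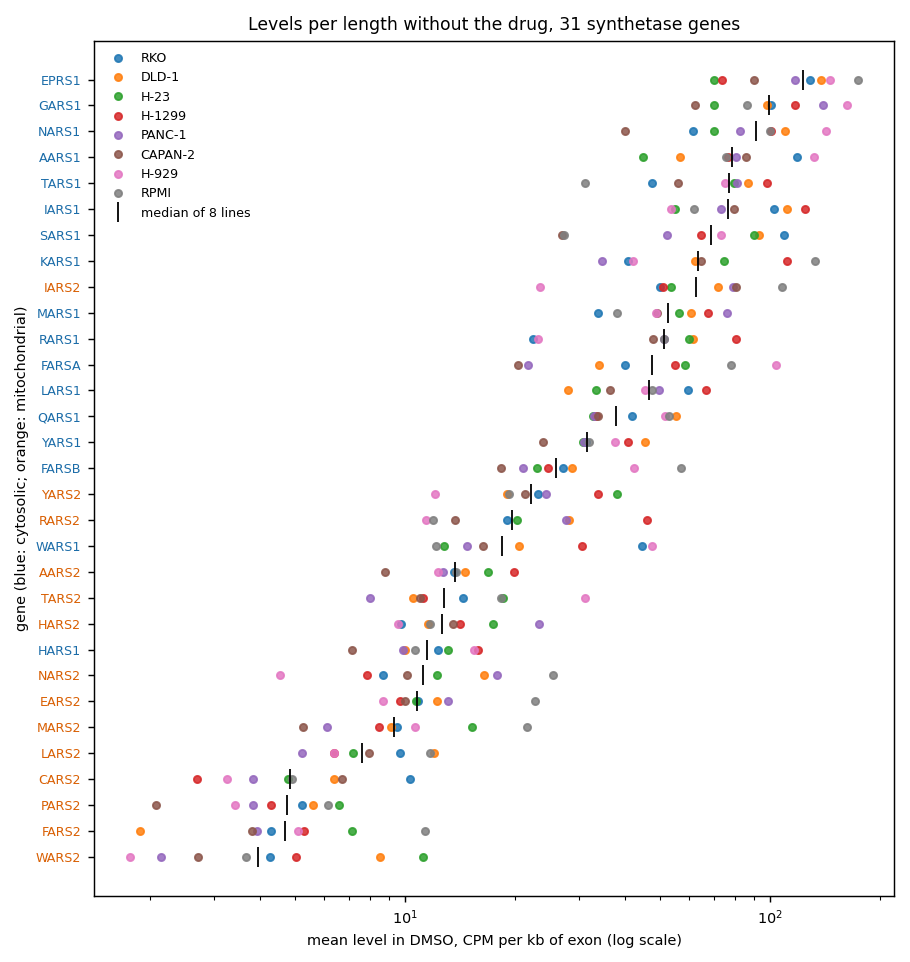
Mean level in DMSO of 31 synthetase genes on a log axis of CPM per kb of exon, one point per line and a black tick at the median of the 8 lines, with cytosolic names in blue and mitochondrial names in orange. Cytosolic genes fill the upper rows and mitochondrial genes the lower, except that mitochondrial IARS2 (62.7) lies among the cytosolic genes and cytosolic WARS1 (18.4) and HARS1 (11.5) lie among the mitochondrial ones.

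The effect of carfilzomib was tested within each line on its 6 libraries with edgeR's quasi-likelihood test, adjusted over all genes tested in the line, and a gene was called at an adjusted p under 0.05. Effects are log2 fold changes of carfilzomib against DMSO, on which 1 stands for 2-fold, with the standard error. In bulk RNA a change in the level per cell and a change in the share of some cells cannot be told apart, and CPM is a share of the counts of a library, so a change in the total RNA of a cell is not seen. RPMI had the most members higher, 17 of the 34 tested, with 13 lower, where 31.3% of all tested genes were called higher and 32.2% lower. H-929, the other myeloma line, had 3 members higher and 21 lower, against 26.4% and 26.2% of all genes. Among the carcinoma lines, members were more often lower than higher in each line: 4 higher and 15 lower in DLD-1 (all genes 10.9% and 12.1%), 9 and 14 in PANC-1 (20.5% and 18.2%), 6 and 14 in CAPAN-2 (25.7% and 26.7%), 10 and 14 in H-1299 (29.8% and 31.3%) and 6 and 9 in H-23 (17.7% and 16.2%). RKO had 1 member higher and 3 lower, where 3.62% and 5.29% of all genes were called. The shares called higher in DLD-1, H-23, H-1299 and RKO, and the share called lower in RPMI, lay near those of all genes and are no result about the synthetases. PARS2 and YARS2 were tested in every line and called in none. Of the rest, 20 were called higher in at least 1 line and lower in at least 1 other, where 47.8% of the 11622 genes tested in every line were, so that count is near the background.

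The direction of the cytosolic set was opposite in the 2 myeloma lines. Of 19 cytosolic members, 17 were lower and none higher in H-929, with a median of -0.84, and 11 were higher and 7 lower in RPMI, with a median of 0.47, while the median of all tested genes was 0.03 and 0.01. In DLD-1 12 were lower and 2 higher (median -0.26), in PANC-1 13 and 5 (-0.27) and in CAPAN-2 9 and 2 (-0.14). In the remaining lines, 7 were lower and 4 higher in H-1299, 6 and 3 in H-23, and 3 and 0 in RKO, with medians between -0.09 and 0.03. Of the 15 mitochondrial members tested, 4 were lower and 3 higher in H-929 (median -0.26), 6 and 6 in RPMI (-0.06), and 7 and 6 in H-1299 (-0.20). Of all tested genes, 26.2% were lower and 26.4% higher in H-929, 32.2% and 31.3% in RPMI, and 31.3% and 29.8% in H-1299. The mitochondrial counts in H-929 and RPMI lay near these shares and are no result about that set. The 2 catalytic classes of synthetase had close medians: that of class I cytosolic members was 0.47 in RPMI and -0.78 in H-929, and that of class II members 0.43 and -0.88. The fused gene EPRS1 was counted in class I only.

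**Figure D2:**
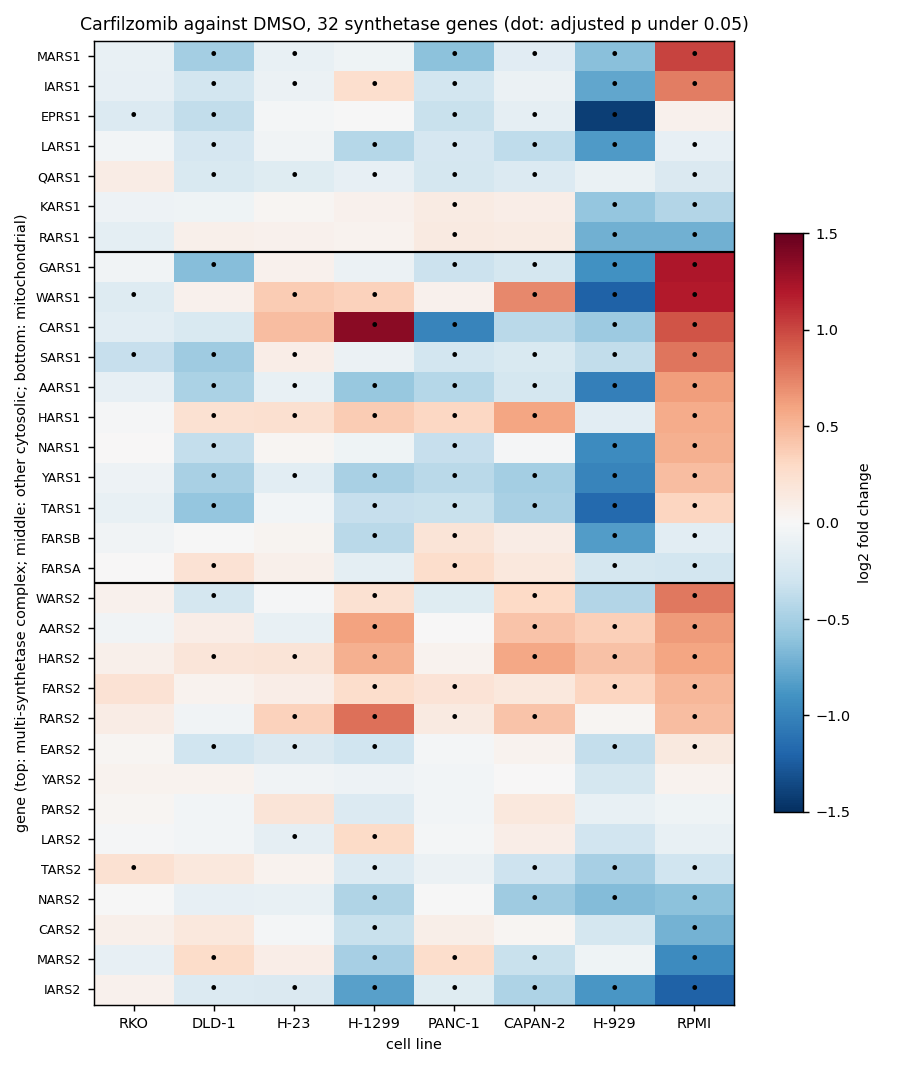
Log2 fold change of carfilzomib against DMSO (colour, from -1.5 blue to 1.5 red) for 32 synthetase genes in rows and 8 lines in columns, with a dot where the adjusted p was under 0.05. Of the 18 cytosolic genes shown, 16 carry a dot on blue in the H-929 column and 11 a dot on red in the RPMI column.

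Summed over the 19 genes, cytosolic synthetase RNA in H-929 was 6240 ± 419 CPM (SD, n = 3) in DMSO and 3471 ± 109 after carfilzomib, and in RPMI 5380 ± 94.1 and 6887 ± 236. The libraries of the 2 treatments did not overlap in either line. The sums also did not overlap in DLD-1 (5867 and 4668 CPM), PANC-1 (5253 and 4329), CAPAN-2 (4120 and 3769) and RKO (5531 and 5116), each lower after the drug. In H-23 (4566 and 4521) and H-1299 (6416 and 6071) they overlapped. The mitochondrial sum fell less in H-929, from 714 ± 24.1 to 617 ± 17.6 CPM, and in RPMI it moved against the cytosolic sum, from 1325 ± 16.2 to 1073 ± 24.7 CPM. In RPMI the drop of IARS2 alone was about as large as that of the whole mitochondrial sum. These sums had no test.

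GARS1, which charges glycine, had the largest rise of the members in RPMI. Its level there was 364, 362 and 351 CPM in DMSO and 864, 857 and 782 after carfilzomib (log2 1.22 ± 0.05, edgeR adjusted p = 4.36e-10). In H-929 it was 702, 722 and 596 CPM in DMSO and 356, 356 and 362 after the drug (-0.91 ± 0.08, edgeR adjusted p = 4.52e-07). The treated libraries lay wholly above the controls in RPMI and wholly below them in H-929, so that the line with the higher level before the drug had the lower level after it. The same crossing was seen for WARS1. In H-929 it went from 307, 324 and 274 CPM to 125, 128 and 136 (-1.22 ± 0.08), and in RPMI from 77.6, 77.8 and 76.2 to 188, 177 and 164 (1.19 ± 0.06). No treated library overlapped a control of its line. The difference between the 2 lines, tested in the joint fit of all 48 libraries, was 2.21 ± 0.09 for GARS1 and 2.49 ± 0.08 for WARS1, the largest of the 34 members tested in every line.

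MARS1, the methionine enzyme, also rose in RPMI, from 280, 267 and 253 CPM to 560, 554 and 506 (1.02 ± 0.06), and fell in H-929, from 350, 356 and 321 to 229, 211 and 226 (-0.62). Both treatments were fully separated in both lines. AARS1 for alanine rose in RPMI from 353, 348 and 323 CPM to 563, 515 and 497 (0.62) and fell in H-929 from 594, 633 and 552 to 307, 280 and 287 (-1.03). SARS1 for serine rose in RPMI from 111, 102 and 100 CPM to 186, 188 and 173 (0.80). Its fall in H-929, from 291, 298 and 252 CPM to 231, 198 and 222, was smaller (-0.37 ± 0.09). IARS1 (0.77 and -0.78), NARS1 (0.54 and -0.94), YARS1 (0.47 and -0.98) and TARS1 (0.32 and -1.17) likewise rose in RPMI and fell in H-929. So did CARS1 for cysteine, although its levels were low in RPMI, 14.2, 10.1 and 7.49 CPM in DMSO and 13.9, 29 and 16.6 after the drug, and the treatments overlapped there (0.94 ± 0.25). Without carfilzomib replicate 2 the RPMI value was 0.56 and still called, and the DESeq2 adjusted p over all 6 libraries was 0.0634. With EARS2, the mitochondrial glutamate enzyme, 11 members were called higher in RPMI and lower in H-929, 10 of them cytosolic, and none was called the other way round. Of the 13498 genes tested in both lines 4.7% were called higher in RPMI and lower in H-929, and 2.87% the other way round. The EARS2 rise in RPMI was small (0.15 ± 0.05) and did not hold in 4 of the 6 fits that left out 1 library.

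Other cytosolic members did not rise in RPMI. EPRS1 had the largest fall of any member in H-929, from 793, 852 and 735 CPM to 320, 285 and 287 (-1.42 ± 0.08, edgeR adjusted p = 6.48e-09). In RPMI it stood at 958, 953 and 934 CPM and at 972, 1030 and 973 after carfilzomib (0.07, edgeR adjusted p = 0.258), which is not a call. RARS1 for arginine fell in both, with -0.72 ± 0.11 in H-929 and -0.72 ± 0.05 in RPMI, and the difference of 0.09 ± 0.09 between them was not called. KARS1 for lysine fell by 0.58 in H-929 and by 0.45 in RPMI on the log2 scale. FARSA and FARSB, the subunits of the phenylalanine enzyme, fell in both myeloma lines: FARSA by 0.27 in each, FARSB by 0.84 in H-929 and by 0.16 in RPMI. LARS1 for leucine fell by 0.85 in H-929 and by 0.12 in RPMI, where the call (edgeR adjusted p = 0.0496) did not hold in 4 of the 6 fits that left out 1 library. In all, 6 cytosolic and 3 mitochondrial members were lower in both lines, where 17.8% of all genes tested in both were.

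**Figure D3:**
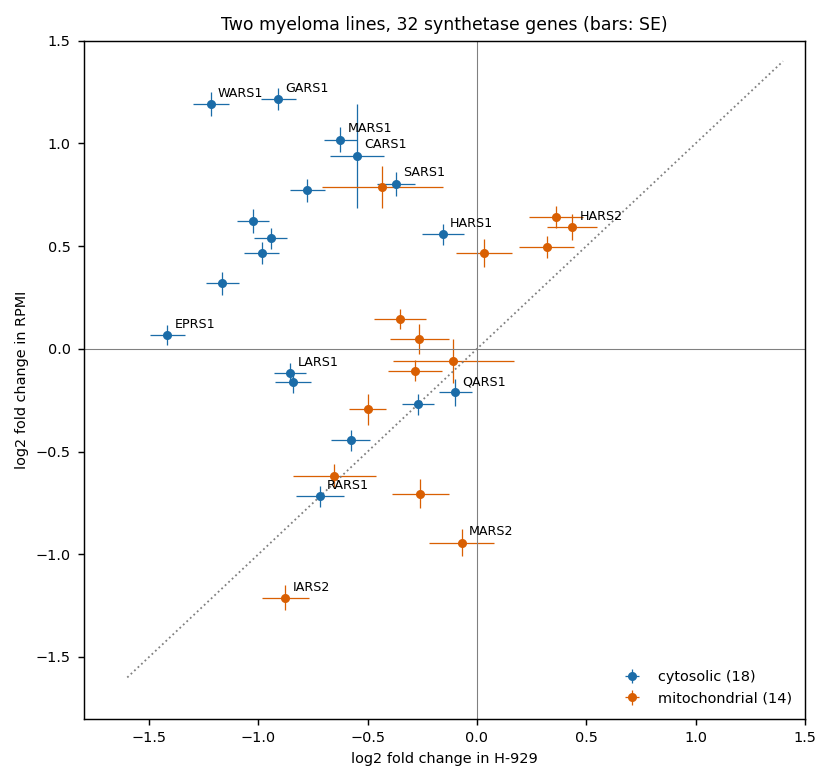
Log2 fold change of carfilzomib against DMSO in H-929 (x axis) and in RPMI (y axis) for 32 synthetase genes, with bars of 1 standard error, cytosolic genes in blue and mitochondrial genes in orange, and a dotted line of equal change. GARS1 (-0.91 and 1.22) and WARS1 (-1.22 and 1.19) lie far above the dotted line, RARS1 (-0.72 in both) lies on it, and IARS2 (-0.88 and -1.21) below it.

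In the joint fit, in which 35 members including VARS2 passed the filter, the fold change in RPMI was above that in H-929 for 25 members and below it for 3, against 21.5% and 18.9% of all 22309 genes tested. Of the 19 cytosolic members 16 had a larger fold change in RPMI and none a smaller one, with a median difference of 1.54. The count of 25 was 21 with DESeq2 size factors or library totals and 20 with a mean of at least 50 counts. KARS1, LARS2, HARS2 and TARS2 were not called under any of these. CARS1 (1.60) was 0.99 with an edgeR adjusted p of 0.056 without replicate 2. The cytosolic exceptions were FARSA (0.08), RARS1 (0.09) and QARS1 (-0.03). Among mitochondrial members the 3 with a smaller fold change in RPMI were MARS2 (-0.79 ± 0.15), CARS2 (-0.36 ± 0.11) and IARS2 (-0.25 ± 0.09). The call of CARS2 was lost without replicate 1 or 3, and that of IARS2 without a filter or without replicate 1 or 2. VARS2 is one of the 25, at 8.12 ± 3.21, a value resting on few counts. Summing the rows that share its identifier brought it to 2.74 with an edgeR adjusted p of 0.104, which is not a call.

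Members of the multi-synthetase complex were mostly lower in RPMI and the other cytosolic members mostly higher. Of the 8 synthetases in the complex, 2 were higher (IARS1 and MARS1) and 5 lower in RPMI (median -0.15), while of the other 11 cytosolic members 9 were higher and 2 lower (median 0.56). Of all tested genes, 31.3% were higher and 32.2% lower in RPMI, and 26.2% were lower in H-929. The RPMI call of LARS1, among the 5, was lost with DESeq2 size factors, library totals or a mean of at least 50 counts. In H-929 7 of the 8 fell (median -0.75) and 10 of the 11 fell (median -0.91). The RNAs of the scaffold proteins fell in both lines, given on the log2 scale. AIMP2 fell by 1.43 in H-929 and by 0.60 in RPMI, EEF1E1 by 0.98 and by 0.34, and AIMP1 by 0.79 and by 0.30. The difference between the 2 sets of members was not tested.

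The cytosolic members were also grouped by whether they are commonly listed as ATF4 targets. Of the 12 listed members measured, 10 were higher and 1 lower in RPMI (median 0.70) and 12 of 12 were lower in H-929 (median -0.93). Of the 7 not listed, among them FARSA, FARSB, KARS1 and RARS1, 1 was higher and 6 were lower in RPMI (median -0.21), and 5 were lower in H-929 (median -0.58). In PANC-1 11 of the 12 listed were lower and none higher (median -0.34), whereas 5 of the 7 not listed were higher and 2 lower (median 0.13). In DLD-1 10 of the 12 were lower (median -0.43), and of the 7, 2 were higher and 2 lower (median -0.01). In CAPAN-2 1 of the 12 was higher and 8 lower, and 1 and 1 of the 7. In H-1299 3 of the 12 were higher and 4 lower, and 1 and 3 of the 7 (medians -0.07 and -0.12). In H-23 the counts were 2 and 4 of the 12, and 1 and 2 of the 7. In RKO 3 of the 12 and none of the 7 were lower. Of all tested genes, 31.3% were higher and 32.2% lower in RPMI, and 26.2% were lower in H-929. In PANC-1 20.5% were higher and 18.2% lower, and in DLD-1 12.1% were lower. The listing was made with earlier results of these data known, so these counts describe the genes and support no rule about them.

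A further grouping used the promoter letters. The 7 cytosolic members whose windows are printed above, AARS1, CARS1, GARS1, IARS1, MARS1, NARS1 and TARS1, were higher in RPMI in 7 of 7 cases (0.32 to 1.22) and lower in H-929 in 7 of 7 (-1.17 to -0.55). Of the 9 cytosolic members with a listed promoter and without the letters, 3 were higher and 5 lower in RPMI (median -0.16), and 7 were lower in H-929 (median -0.58). SARS1 and WARS1 rose in RPMI without the letters in this window, and that says only that these 8 letters are not in it. In PANC-1 all 7 members with the letters were lower (-0.99 to -0.28), and in DLD-1 6 of 7. Of the 9 without them, 5 were higher and 3 lower in PANC-1, and 2 and 3 in DLD-1. Of the 7 with the letters, 2 were higher and 2 lower in H-1299. None of the 7 was higher in CAPAN-2 or H-23, where 4 and 3 were lower. In RKO none of the 7 was called. Of all tested genes, 31.3% were higher in RPMI, and 26.2% were lower in H-929, 18.2% in PANC-1 and 12.1% in DLD-1. In H-1299 29.8% were higher and 31.3% lower, and in CAPAN-2 and H-23 26.7% and 16.2% were lower. This split was made after the values were seen.

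In DLD-1 the largest fall among the members was again that of GARS1, from 397, 397 and 429 CPM to 252, 272 and 264 (-0.63 ± 0.05, edgeR adjusted p = 1.36e-05), with no overlap. TARS1 (-0.57), SARS1 (-0.53), MARS1 (-0.51), YARS1 (-0.49), AARS1 (-0.48), EPRS1 (-0.37) and NARS1 (-0.36) fell with it. The members that rose in DLD-1 were MARS2 (0.28), HARS1 (0.23), FARSA (0.21) and HARS2 (0.18). The calls of FARSA and HARS2 were lost in 4 and in 3 of the 6 fits that left out 1 library.

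In PANC-1 MARS1 fell from 544, 530 and 535 CPM to 349, 368 and 335 (-0.61 ± 0.04), and AARS1 (-0.42), YARS1 (-0.40), NARS1 (-0.34) and GARS1 (-0.32) fell as well. CARS1 had the largest estimate there, from 19.2, 22.9 and 39.6 CPM to 12.8, 16.1 and 12.5 (-0.99 ± 0.21), of which DMSO replicate 3 made a large part. Without that library the value was -0.61 and still called. In CAPAN-2 the falls were led by NARS2 (-0.53), YARS1 (-0.51), TARS1 (-0.48) and IARS2 (-0.47). WARS1 rose there, from 106, 101 and 103 CPM to 176, 166 and 172 (0.72 ± 0.05, edgeR adjusted p = 4.14e-08), and it also rose in H-23 (0.38) and H-1299 (0.34) while it fell in RKO (-0.19).

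In H-1299, RARS2 (0.82 ± 0.04) and AARS2 (0.60 ± 0.05) rose and IARS2 (-0.81) and AARS1 (-0.56) fell. IARS1, lower in DLD-1, PANC-1, H-23 and H-929, rose in H-1299 (0.25 ± 0.05). Its fall in H-23 was small (-0.09), and the call did not hold in 4 of the 6 fits that left out 1 library. The largest estimate in H-1299, that of CARS1 (1.36 ± 0.42), rests on 1 library: its levels were 4.43, 4.85 and 6.0 CPM in DMSO and 6.99, 25.4 and 6.0 after the drug, and without carfilzomib replicate 2 the value was 0.35 with an edgeR adjusted p of 0.107. With the rows of its identifier summed it was 0.48 with an edgeR adjusted p of 0.295, and the DESeq2 adjusted p was 0.0869. In H-23 no called member moved by more than 0.38, the rise of WARS1, and EARS2 had the largest fall (-0.22 ± 0.04). In RKO the falls were SARS1 (408, 411 and 433 CPM to 346, 318 and 320, -0.35 ± 0.05, edgeR adjusted p = 0.000379), EPRS1 (-0.21) and WARS1 (-0.19). The 1 rise, that of TARS2 (55.0, 62.3 and 58.4 CPM to 70.4, 66.4 and 69.0, 0.23 ± 0.06), was lost in 5 of the 6 fits that left out 1 library.

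HARS1 and HARS2, the histidine enzymes of the cytosol and the mitochondrion, were the members called higher in the most lines, 6 each, where 4.06% of the genes tested in every line were called higher in at least 6, and both were higher in the same 5 lines, DLD-1, H-23, H-1299, CAPAN-2 and RPMI. They are neighbours on chromosome 5 that are read away from each other, and the 84 bases between their listed RefSeq starts are shown because both genes are read outward from them (GRCh38.p14, plus strand, chr5:140691371-140691454, in lower case throughout, since no motif is marked).
HARS1 and HARS2, shared stretch: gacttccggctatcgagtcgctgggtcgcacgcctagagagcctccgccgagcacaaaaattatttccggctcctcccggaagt
In CAPAN-2 HARS1 rose from 58.5, 58.8 and 50.6 CPM to 87.4, 82.8 and 83.2 (0.60 ± 0.07), and HARS2 from 50.9, 49.7 and 51.1 to 79.3, 75.8 and 72.1 (0.58 ± 0.06). In RPMI HARS2 rose from 42.3, 45.2 and 43.5 CPM to 70.3, 65.7 and 61.8 (0.59) and HARS1 by 0.56. All treated libraries of both genes stood above the controls in these lines. They parted in PANC-1, where HARS1 rose (0.32 ± 0.04) and HARS2 was not called (0.06), and in H-929, where HARS2 rose (0.44 ± 0.12) and HARS1 was not called (-0.16, edgeR adjusted p = 0.195, treatments overlapping). In GENCODE release 29 the 2 genes overlap on opposite strands: HARS1, on the minus strand, reaches up to base 140691862 and HARS2, on the plus strand, begins at base 140691426, so the stretch shown lies inside HARS1 as drawn there. Whether the counting used strand is not given in the sources used here, so reads of one may have been counted for the other.

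**Figure D4:**
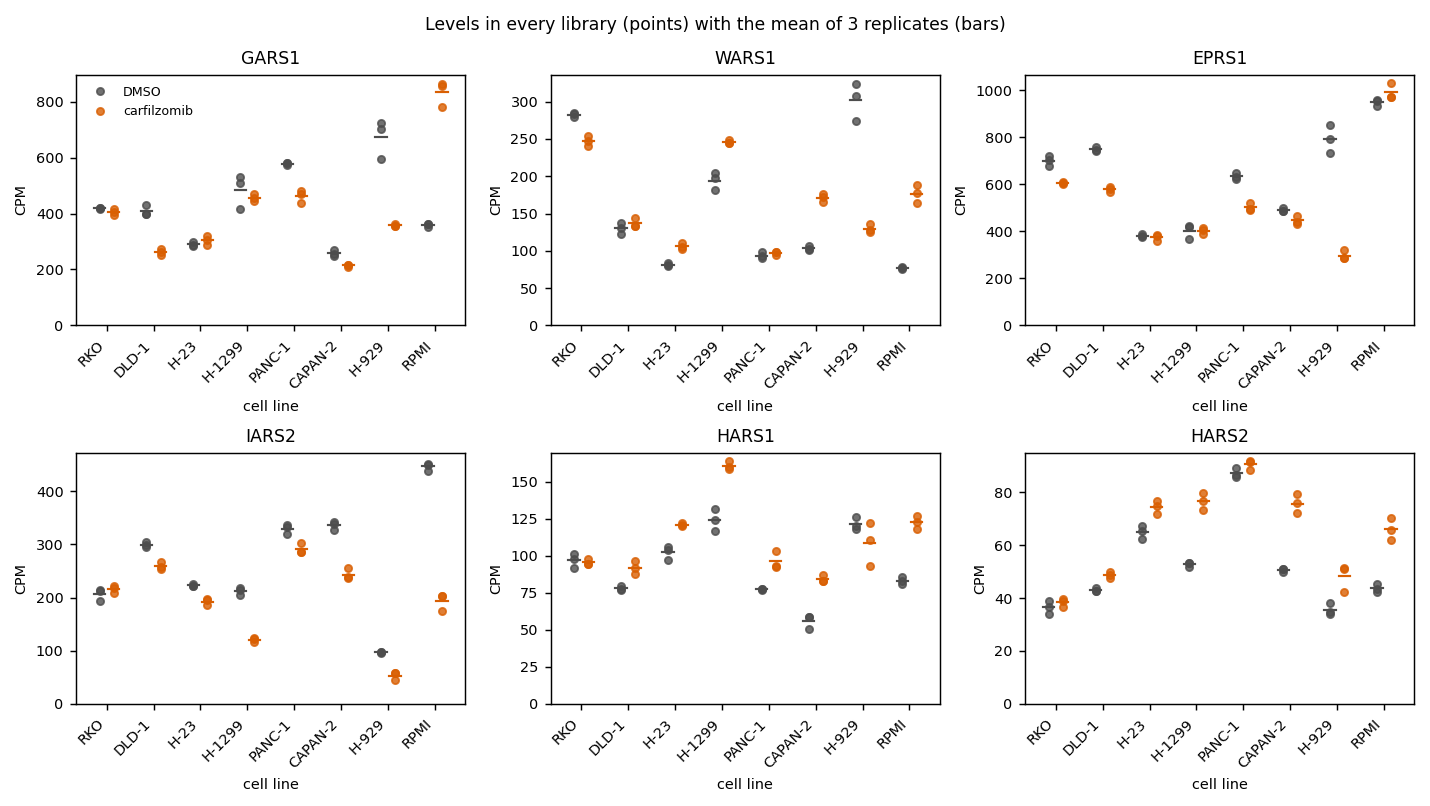
Level in CPM (linear axes from 0) of GARS1, WARS1, EPRS1, IARS2, HARS1 and HARS2 in each of the 48 libraries, with DMSO in grey, carfilzomib in orange and bars at the mean of 3 replicates. GARS1 and WARS1 fell in H-929 and rose in RPMI, EPRS1 fell in H-929 only of the 2, and IARS2 fell in both.

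Among the mitochondrial members, IARS2 fell in 7 of the 8 lines. In RPMI it went from 450, 452 and 439 CPM to 202, 202 and 175 (-1.21 ± 0.06, edgeR adjusted p = 1.35e-09), the largest fall of any member in that line. In H-1299 it went from 214, 205 and 217 CPM to 117, 123 and 122 (-0.81), and in H-929 from 96.3, 98.0 and 98.0 to 57.7, 57.4 and 44 (-0.88). The treatments were fully separated in all these lines. RKO was the exception, at 194, 213 and 215 CPM in DMSO and 208, 221 and 218 after carfilzomib (0.06, edgeR adjusted p = 0.52). The cytosolic enzyme for the same amino acid, IARS1, moved the other way in RPMI (0.77) and H-1299 (0.25).

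NARS2, for asparagine, fell in 4 lines, by 0.53 in CAPAN-2, 0.45 in H-1299, 0.65 in H-929 and 0.62 in RPMI on the log2 scale. In RPMI its cytosolic partner NARS1 rose. MARS2, for methionine, fell in RPMI from 67.3, 62.4 and 65.2 CPM to 31.5, 33.3 and 36.2 (-0.94 ± 0.07), again against its partner MARS1, which rose there. It also fell in H-1299 (-0.50) and CAPAN-2 (-0.33), and it rose in DLD-1 (0.28), where MARS1 fell. CARS2 fell in RPMI (-0.71) and in H-1299 (-0.33). TARS2 fell in H-929 (-0.50), CAPAN-2 (-0.31), RPMI (-0.29) and H-1299 (-0.20).

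Some mitochondrial members rose. RARS2, for arginine, was higher in 5 lines and lower in none. In H-1299 it went from 118, 115 and 118 CPM to 211, 205 and 205 (0.82 ± 0.04, edgeR adjusted p = 2.98e-09), and in RPMI from 31.4, 29.1 and 30.3 to 42.3, 40.7 and 42.3 (0.47), where its partner RARS1 fell. AARS2, for alanine, was higher in 4 lines, by 0.60 in H-1299, 0.43 in CAPAN-2, 0.64 in RPMI and 0.36 in H-929, where the treatments overlapped and the call did not hold in 4 of 6 fits that left out 1 library. Its partner AARS1 fell in H-1299, CAPAN-2 and H-929. FARS2 was higher in 4 lines, with its largest rise in RPMI (0.50 ± 0.05), and its calls in H-929 and PANC-1 did not hold in 5 and in 4 of 6 such fits. WARS2 rose in RPMI from 16, 13.6 and 12.6 CPM to 24.5, 24.8 and 23.1 (0.79), as WARS1 did. LARS2 was higher in H-1299 (0.29) and lower in H-23 (-0.13), where the call did not hold in 4 of 6 such fits.

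Averaged over the 8 lines in the joint fit, 6 of 35 members were higher and 24 lower, against 19.8% and 23.9% of all genes. Of the cytosolic members 15 were lower, including all 8 of the multi-synthetase complex. Cytosolic members with large averages were TARS1 (-0.38 ± 0.02), YARS1 (-0.37), EPRS1 (-0.34), LARS1 (-0.34) and AARS1 (-0.34). Those higher on average were HARS1 (0.23 ± 0.02) and WARS1 (0.13 ± 0.02), and the average of WARS1 turned to -0.02 (edgeR adjusted p = 0.615) without RPMI and was 0.04 (edgeR adjusted p = 0.141) without CAPAN-2. The mitochondrial members with the largest average were IARS2 (-0.53 ± 0.02), NARS2 (-0.36 ± 0.03), HARS2 (0.29 ± 0.02) and RARS2 (0.24 ± 0.02). With AARS2 (0.21) and FARS2 (0.18), these were the mitochondrial members higher on average. Replicate spread is the only error in these averages. When limma took the 8 lines as units instead, no member passed an adjusted p under 0.05 (0 higher and 0 lower), 10 did at an unadjusted p under 0.05, and the adjusted p was 0.105 for IARS2 and 0.102 for HARS2.

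LARS1, QARS1, AARS1 and YARS1 were lower in 6 lines each, where 4.27% of the genes tested in every line were lower in at least 6. AARS1 and YARS1 rose in RPMI, whereas LARS1 fell in both myeloma lines and was called higher nowhere. QARS1, the glutamine enzyme, changed least of these, with falls between -0.26 and -0.12, and its values in RKO (0.11) and H-929 (-0.10) were not called. The calls of QARS1 in H-1299 and of AARS1 in H-23 did not hold in 5 and in 4 of 6 fits that left out 1 library. AARS1 in H-23 (-0.11) was -0.13 with an edgeR adjusted p of 0.225, not a call, in the fit of all libraries. The fold changes differed between lines for 33 of the 35 members in the joint fit, against 67.7% of all genes, and the exceptions were FARS2 (edgeR adjusted p = 0.0655) and PARS2 (0.248).

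The mean of the myeloma lines was above that of the other 6 for 5 members and below it for 21, against 19.1% and 25.2% of all genes. The 7 cytosolic members not listed as ATF4 targets were below, led by RARS1 (-0.88 ± 0.05). Of these, QARS1 (-0.11) was not called with DESeq2 size factors, a mean of at least 50 counts or without replicate 2 or 3, and it changed sign (0.02) with library totals. HARS1 (-0.20) was not called with library totals or with that minimum. Among mitochondrial members IARS2 (-0.85 ± 0.05) led. The members above were MARS1 (0.35), SARS1 (0.34), GARS1 (0.26), AARS2 (0.23) and HARS2 (0.13). With library totals in place of TMM the split was 9 above and 14 below. This contrast sets 2 lines against 6, and for GARS1, MARS1 and SARS1 the mean joins a rise in RPMI with a fall in H-929.

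The other genes of the ATF4 arm and the amino acid response, 27 in the list, were counted beside the synthetases. In RPMI 24 of the 25 tested were higher and none lower (median 1.30), and in H-929 8 were higher and 9 lower (median -0.08). Of all tested genes, 31.3% were higher and 32.2% lower in RPMI, and 26.4% and 26.2% in H-929. The H-929 counts lay near these shares and are no result about the list. ATF4 itself rose in RPMI from 376 ± 12.2 to 928 ± 40.3 CPM (SD, n = 3; 1.30 ± 0.05) and was not called in H-929 (824 ± 52.2 and 861 ± 41.8 CPM). DDIT3, the stress transcription factor CHOP, rose in both, by 3.24 ± 0.12 in H-929 and 3.28 ± 0.08 in RPMI, with a difference of 0.12 ± 0.15 that was not called. ASNS rose in both as well, by 0.98 in H-929 and 2.53 in RPMI. In H-929 17 of 19 cytosolic synthetases fell while ASNS and DDIT3 rose. PHGDH, which starts serine synthesis, fell in H-929 (-0.996) and rose in RPMI (1.97). TRIB3, another ATF4 target, rose in RPMI (2.58) and was not called in H-929 (0.41).

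Among the carcinoma lines the arm was lowest in DLD-1, by its median. There 20 of 24 were lower and none higher (median -0.58). In PANC-1 17 of 25 were lower and 2 higher, in H-1299 16 of 24 lower and 4 higher, and in CAPAN-2 11 of 24 lower and 8 higher. H-23 had 6 higher and 8 lower of 25, and RKO 2 and 5 of 23. Of all tested genes, 10.9% were higher and 12.1% lower in DLD-1, 20.5% and 18.2% in PANC-1, and 29.8% and 31.3% in H-1299. The shares were 25.7% and 26.7% in CAPAN-2, 17.7% and 16.2% in H-23, and 3.62% and 5.29% in RKO. The counts called higher in CAPAN-2 and H-23 lay near these shares and are no result about the list. ASNS fell in H-1299 (-1.89), CAPAN-2 (-1.09), DLD-1 (-0.75) and PANC-1 (-0.72), and ATF4 fell in DLD-1 (-0.57). On average over the lines 6 of 26 were higher and 12 lower, against 19.8% and 23.9% of all genes, so the count higher is near the background. The largest averages were those of PPP1R15A (1.13), a regulator of eIF2 dephosphorylation, and ATF3 (1.00).

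**Figure D5:**
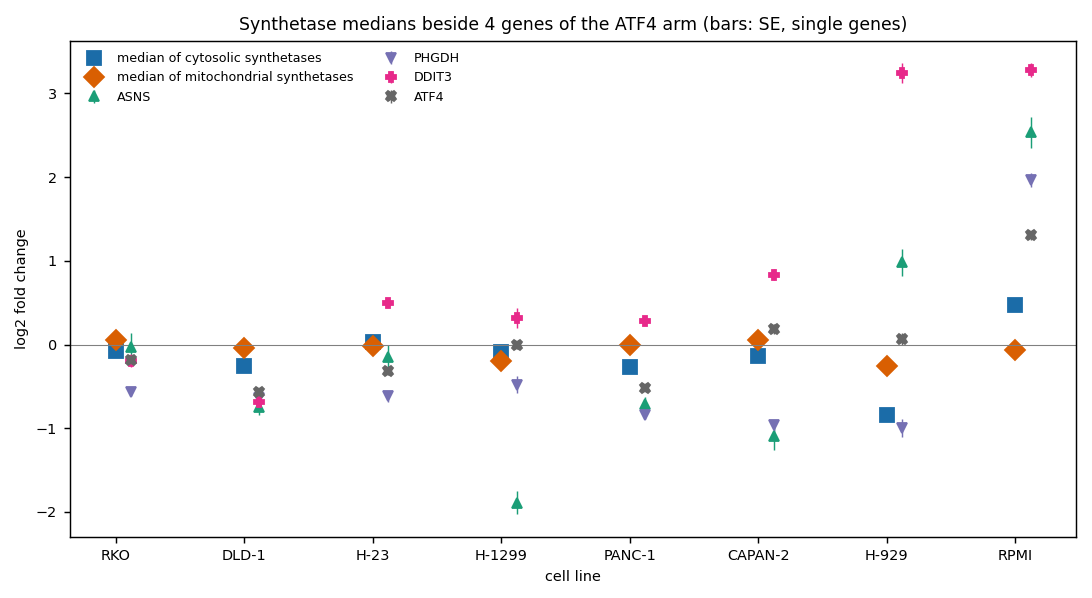
Median log2 fold change of the cytosolic (blue squares) and mitochondrial (orange diamonds) synthetases in each line beside the log2 fold changes of ASNS, PHGDH, DDIT3 and ATF4, with bars of 1 standard error for single genes. The cytosolic median lies at -0.84 in H-929 and 0.47 in RPMI, while DDIT3 lies above 3 in both.

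Amino acid transporters fell on average in 9 of 11 cases and rose in 1, led by SLC1A4 (-0.82) and SLC7A5 (-0.58), carriers of neutral amino acids. In DLD-1 10 of 10 tested were lower, in H-929 8 of 10 lower and 1 higher, and in RPMI 6 higher and 2 lower. Of all tested genes, 12.1% were lower in DLD-1, 26.2% lower and 26.4% higher in H-929, and 31.3% higher and 32.2% lower in RPMI. The RNAs of the scaffold proteins of the multi-synthetase complex fell on average with those of their synthetases. AIMP2 fell by 0.49, EEF1E1 by 0.23 and AIMP1 by 0.22 on the log2 scale. By line, AIMP2 was called lower in 5 lines, AIMP1 in 3 and EEF1E1 in 2, and EEF1E1 rose in H-23 (0.24). In the list of scaffolds and relatives as a whole, 4 of the 6 tested fell on average and none rose. QRSL1 and GATB, subunits of the enzyme that completes mitochondrial glutaminyl-tRNA, rose on average (0.21 and 0.23), while GATC, a further subunit, fell (-0.07). With MTFMT (-0.15), 2 genes of the mitochondrial charging list rose and 2 fell on average. In H-929, where 26.2% of all genes were lower, all 4 fell (median -0.49). Of the kinases and partners that sense stress and act on eIF2, 5 of 6 fell and none rose on average, with IMPACT (-0.24) and EIF2AK4 (-0.19), the kinase that responds to uncharged tRNA, the largest. Translation factors did not move one way: on average 5 of 16 cytosolic factors were higher and 6 lower, and of 9 mitochondrial factors 3 were higher and 3 lower. For all these lists, 19.8% of all genes were higher and 23.9% lower on average. The counts of translation factors lay near these shares and are no result about them.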

How the data were processed

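RNA was measured in 48 libraries of 8 lines under 2 treatments. The authors deposited 1 matrix of raw counts, reads per gene and library. Per the labels' protocols, libraries were stranded total RNA, while the design text names mRNA. The submitters' processing notes list hg38, bcl2fastq 2.19, FastQC, Trimmomatic, HISAT2 and DESeq2, with no role for each. The counting program, its annotation and its use of strand are not given in the sources used here.

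Each line was tested on its 6 libraries with edgeR 4.0.16 (R 4.3.3): TMM, filterByExpr, the quasi-likelihood F test and Benjamini-Hochberg adjustment over all genes, called at an adjusted p under 0.05. A joint fit of 48 libraries in 16 groups gave the averages and the differences between lines. Standard errors are the absolute log2 fold change divided by the square root of F. Exon lengths came from GENCODE release 29 by identifier, and promoters from RefSeq (GRCh38.p14). The fits of RKO, H-929 and RPMI and the average were tested on simulated data with the same replicate spread for every gene. The contrasts between lines were not tested in this way. Totals of 9.12 M to 64.4 M counts set the counting error only.

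Members are those of the symbol rule. Values are given for the 6 cytosolic and 4 mitochondrial members with the largest called averages, members called one way in at least 6 lines, the largest called rise and fall in each line, their partners for the same amino acid, and, chosen after their values were seen, members that moved alike or apart in the myeloma lines and the other mitochondrial members called. From the other lists, values are given for ATF4, DDIT3, ASNS, TRIB3, the scaffolds and up to 2 genes with the largest average per list, and PHGDH was chosen after its values were seen. Counts cover every member, but some members are not reported here by name. The members and lists were chosen with earlier results of these data known.

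Alternatives were DESeq2 size factors, library totals, no filter, DESeq2 1.42.0 with its Wald test, a minimum mean of 50 counts, one fit of all libraries, the replicate number as a block, limma 3.58.1 with lines as units, and leaving out each library, replicate number or line in turn. Summing rows that share an identifier was added after seeing the data. No pair of replicates agreed within sampling noise (lowest chi-square over its degrees of freedom 3.35), so each library counts once.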

Additional observations from a re-analysis of the deposited data

Results flagged for a closer look

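Listed here are 26 members whose response to carfilzomib differed between the 2 myeloma lines by a test of the difference itself. That test took the fold change in RPMI minus the fold change in H-929 (edgeR joint fit, adjusted over all genes). The values are log2 differences. Among cytosolic members they were 2.49 for WARS1, 2.21 for GARS1, 1.73 for AARS1, 1.73 for MARS1, 1.63 for IARS1, 1.60 for CARS1, 1.57 for EPRS1, 1.57 for TARS1, 1.57 for NARS1, 1.54 for YARS1, 1.26 for SARS1, 0.82 for LARS1, 0.80 for HARS1, 0.76 for FARSB and 0.22 for KARS1. Among mitochondrial members they were 1.31 for WARS2, 0.58 for EARS2, 0.52 for RARS2, 0.40 for YARS2, 0.36 for AARS2, 0.29 for TARS2, 0.26 for LARS2, 0.24 for HARS2, -0.25 for IARS2, -0.36 for CARS2 and -0.79 for MARS2. The calls of KARS1, LARS2, HARS2 and TARS2 were lost under DESeq2 size factors, library totals and a mean of at least 50 counts. KARS1, HARS2 and TARS2 were also lost without replicate 1 or 2, and LARS2 without 1 or 3. The call of IARS2 was lost without a filter or without replicate 1 or 2, and that of CARS1 without replicate 2 (0.99, edgeR adjusted p = 0.056). That of CARS2 was lost without replicate 1 or 3, that of YARS2 without replicate 1 and that of AARS2 without replicate 2. VARS2 also passed the test but was tested in neither line alone and is left out. The lines also differ in level before the drug, in depth and in plasma cell markers, and the part of these in the differences was not tested.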

How the results depend on the processing

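Per-line counts of members changed as follows. One fit of all 48 libraries gave 3 higher in PANC-1 (9 in the line's own fit) and 5 lower in H-23 (9). In RKO, no filter gave 2 higher, the replicate block 0 higher, and DESeq2 5 lower. With library totals 9 members were above in the myeloma contrast, and the calls split 8 higher and 20 lower in H-1299 and 4 and 11 in H-23. Library totals moved the median of all genes by -0.11 in H-1299 and by 0.13 in the myeloma contrast. With lines as units (limma) 0 members were higher and 0 lower on average. QARS1 turned to 0.021 in the myeloma contrast under library totals, and the average of WARS1 to -0.018 without RPMI. Without H-929 the averages of GARS1 (-0.04) and IARS1 (-0.002) were no longer called. The 243 calls were lost with the sign kept in 116 of 1751 checks under other settings and in 117 of 729 without a replicate number. The same held in 87 of 954 checks without a library and in 8 of 240 without a line. In 1 further check under other settings (QARS1) and 1 without a line (WARS1) the call was lost and the sign turned. The causes were not tested.

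Leaving out 1 library or replicate number gave, higher and lower, 0 to 1 and 1 to 5 in RKO, 1 to 5 and 12 to 15 in DLD-1, 4 to 6 and 4 to 8 in H-23, 9 to 11 and 13 to 18 in H-1299, 3 to 9 and 13 to 14 in PANC-1, 5 to 8 and 8 to 15 in CAPAN-2, 1 to 3 and 18 to 24 in H-929, and 15 to 17 and 7 to 12 in RPMI. It gave 20 to 23 and 1 to 2 for RPMI minus H-929, 3 to 5 and 18 to 21 for the myeloma contrast, and, lines included, 5 to 7 and 20 to 25 on average and 31 to 32 for differing lines.

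The labels number replicates alike in both treatments, but same-numbered libraries did not deviate together (correlations -0.095 to 0.06), so the numbers do not pair them. With the replicate number as a block, 0 members were higher in RKO, 17 higher and 12 lower in RPMI, and 2 and 22 in H-929.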
